A study of Mus musculus with 12 samples.

Results

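The 10 genes described here, Tfrc, Slc11a2, Steap3, Fth1, Ftl1, Ncoa4, Slc40a1, Hmox1, Aco1 and Ireb2, take part in the uptake, storage, release and sensing of cellular iron. They were chosen by name, with earlier results of these data known, from the 52550 genes of the expression table, and all 10 were among the 16823 genes that passed the filter on low counts. RNA-seq was performed on 12 libraries of D2A1 and D2.OR, related mouse mammary tumour cell lines from separate tumours, of which D2A1 is used as the line that grows into metastases and D2.OR as the line that stays dormant. Each line was cultured in 2D, on plastic, and in 3D, on top of growth-factor-reduced Matrigel, a basement membrane extract. This gave 4 groups of 3 libraries, D2A1 in 2D, D2A1 in 3D, D2.OR in 2D and D2.OR in 3D, and the labels give no other agent or genetic change for any of them. By the paper's methods the 3D medium held horse serum, hydrocortisone, cholera toxin and insulin. Cells in 2D are described there both in that medium and in one with fetal bovine serum. Medium may thus differ along with 3D culture, and the 2 could then not be told apart. The replicate number of a library marks its batch, and each of the 3 batches was read in a lane of its own. RNA came from pooled wells. The study calls its repeats biological and the labels give only the batch. The p-values of the main fit rest on the spread between libraries that is left after group and batch.

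Iron enters most cells as transferrin bound to the receptor Tfrc, is reduced by Steap3 and leaves the endosome through Slc11a2, and cytosolic iron that is not used is either packed into ferritin, a shell of Fth1 and Ftl1 chains, or pumped out by Slc40a1. In low iron, the regulators Aco1 and Ireb2 bind a short hairpin, the iron-responsive element (IRE), which blocks translation when it lies in the 5' UTR of ferritin or Slc40a1 and protects the Tfrc transcript from decay when it lies in the 3' UTR. Dividing cells, mammary tumour cells among them, are known for a high demand for iron, and ferritin and Slc40a1 are widely studied in breast cancer. A transcript level therefore bears on uptake by Tfrc more directly than on the amount of ferritin protein, which was not measured here.

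The IREs are shown because ferritin, Slc40a1 and Tfrc are the textbook transcripts under this control. The GENCODE M21 protein-coding transcripts (GRCm38) were searched, on the transcript strand only, for a C followed by 5 bases, the 6-base loop CAGTGN and 5 more bases, where the 5 bases on each side of the loop had to pair with each other, G with T included. The letters were found in 294 of 21877 genes (1.34%), in a 5' UTR in 0.137% and in a 3' UTR in 0.585% of genes. Of the 10 members, 4 held them. In the lines below, each with 5 further bases on both sides, the capitals mark the unpaired C and the loop.
Fth1, 5' UTR, chr19:9982733-9982759, plus strand: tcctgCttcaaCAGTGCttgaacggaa
Ftl1, 5' UTR, chr7:45459780-45459806, minus strand: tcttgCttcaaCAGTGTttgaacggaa
Slc40a1, 5' UTR, chr1:45925466-45925492, minus strand: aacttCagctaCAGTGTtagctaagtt
Tfrc site 1, 3' UTR, chr16:32631220-32631246, plus strand: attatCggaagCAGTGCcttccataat
Tfrc site 2, 3' UTR, chr16:32631599-32631625, plus strand: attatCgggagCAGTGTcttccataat
Tfrc site 3, 3' UTR, chr16:32631664-32631690, plus strand: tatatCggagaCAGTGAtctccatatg
Tfrc site 4, 3' UTR, chr16:32631711-32631737, plus strand: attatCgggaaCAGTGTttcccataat
The Ftl1 element had 25 of its 27 bases in common with that of Fth1, the Slc40a1 element 13 and the Tfrc elements 9 to 11. In the first transcript listed for each gene, the Tfrc elements lay in exon 19 and those of the other members in exon 1. These letters were not found in the transcripts of Slc11a2, Steap3, Ncoa4, Hmox1, Aco1 and Ireb2, which says only that this spelling is absent there.

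Library totals ran from 47589611 to 73325069 counts (median 61747126), and the members had between 193 and 482364 counts in a library. D2A1 2D replicate 1 stood apart: without it, the genes called between 3D and 2D in D2A1 went from 586 to 5237 of all tested and those called for the interaction from 4 to 2509, and the members' values without it are given below where they change. Without D2A1 3D replicate 1 the same counts were 2208 and 507, and those for culture in D2.OR went from 273 to 522. The label of breast cancer cell line was checked against its markers. The 5 luminal markers summed to 73.6 to 213 CPM (counts scaled to library size) in D2A1 and 461 to 1871 CPM in D2.OR. In D2A1 this was nearly all Krt18 (72.2 to 211 CPM, overlapping the 89.4 to 512 CPM of D2.OR). Krt8, Epcam and Cdh1 were lower in every D2A1 library than in every D2.OR library, and Krt19 was at most 0.0866 CPM in both lines. Vim, a mesenchymal filament, was abundant in both lines (581 to 4701 CPM), but the rest of the mesenchymal list was mixed. Cdh2 never exceeded 0.319 CPM. Zeb1 was higher in D2A1, at 33.8 to 45.9 CPM against 2.245 to 8.75 for D2.OR. Zeb2 went the other way, with D2A1 at 54.1 to 113 CPM against 194 to 244, and Twist1 overlapped between the lines. Haemoglobin Hbb-bs and Hbb-bt were at 0 in all 12 libraries, and the macrophage markers are given below beside Hmox1.

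Among the members, ferritin was by far the most abundant product per transcript length. The mean over the 12 libraries was 11440 TPM, the unit of transcript abundance per length within a library, for Fth1, the second most abundant of all genes with 1.14% of all TPM, and 4303 TPM for Ftl1, at rank 13. Far below came Hmox1 (123.5 TPM), Ncoa4 (93.9), Tfrc (72.2), Slc11a2 (42.8), Ireb2 (42.0), Aco1 (38.0), Steap3 (15.2) and Slc40a1 (13.1). The ranges of neighbours in this order overlapped over the libraries, apart from the steps from Fth1 to Ftl1, from Ftl1 to Hmox1 and from Aco1 to Steap3. The members also differed in how far they moved: TPM spanned 30.0-fold between the highest and lowest library for Slc40a1 and 12.07-fold for Tfrc, but 1.29-fold for Ireb2 and 1.28-fold for Aco1. The importer and the exporter were thus the most variable, and the IRE-binding regulators the most even.

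**Figure D1:**
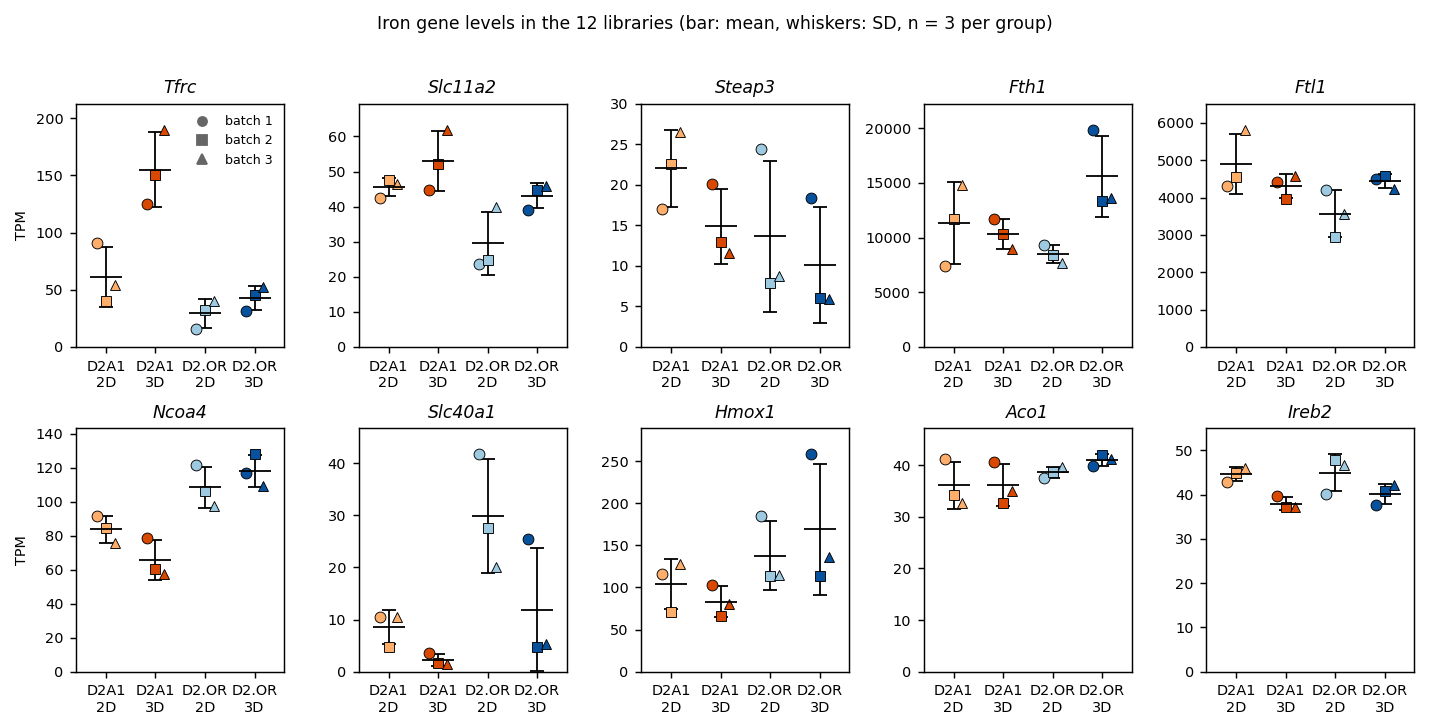
TPM of the 10 genes in each of the 12 libraries, by group (colour) and batch (symbol), with the group mean and SD (n = 3), each axis starting at 0. Tfrc was highest in D2A1 3D (125 to 190 TPM), Slc40a1 had its highest mean in D2.OR 2D (29.8 TPM), and Aco1 and Ireb2 lay between 32.8 and 47.9 TPM in all libraries.

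The first question was how the lines differ. In 2D, 5 of the 10 members passed an adjusted p of 0.05, 3 higher and 2 lower in D2.OR, where 49.8% of all genes tested were called (25.4% higher, 24.4% lower). In 3D, 5 were called as well, by name the same ones and in the same direction, where 53.8% of all genes were called (27.7% higher, 26.1% lower). Slc40a1, Ncoa4 and Hmox1 were higher in D2.OR, and Tfrc and Slc11a2 were lower. Scaling by library total gave 2 higher and 3 lower in 2D, where Hmox1 was no longer called and Ftl1 was (-0.48, adjusted p = 0.0285), beside 3394 of all genes higher and 5399 lower. Both shares were close to those over all genes, and the members' median log2-fold change was -0.07 in 2D and 0.09 in 3D, against -0.0034 and 0.0005 over all genes.

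The second question was what 3D culture does within each line. In D2A1, 2 members were called, Slc11a2 higher and Slc40a1 lower in 3D, where 3.48% of all genes were called (1.37% higher, 2.12% lower). In D2.OR 1 member was called, Slc11a2 as higher, where 1.62% of all genes were (0.838% higher, 0.785% lower). The median log2-fold change of the members was -0.10 in D2A1 and 0.14 in D2.OR, against 0.0037 and 0.002 over all genes. For the interaction, which asks whether 3D acts differently in the lines, 0 members were called by edgeR, where 0.0238% of all genes were. At an unadjusted p under 0.05 there were 2, Fth1 and Ncoa4, where 17.8% of all genes passed. DESeq2 called 0 members (5.61% of all genes) and limma 0 (0.0773% with 1 added to TPM).

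Both D2A1 2D replicate 1 and its batch changed these counts. Without that library, 8 members were called between the lines in 2D (51.2% of all genes) and 7 in 3D (59.5%), 4 for culture in D2A1 (30.3%), 4 for culture in D2.OR (3.67%) and 2 for the interaction (14.5%). Without the whole of batch 1, the members called were 8 in 2D (53.8%), 8 in 3D (56.9%), 5 in D2A1 (36.3%), 4 in D2.OR (8.38%) and 3 for the interaction (17.8%). Without batch 2, edgeR called 0 of all genes for culture in either line, against 1537 in D2A1 and 1221 in D2.OR at an unadjusted p under 0.05, and without batch 3 it called 0 in D2A1 (1530 unadjusted) and 1 in D2.OR. The cause was not tested. Groups whose TPM did not overlap were seen for 5 members between the lines in 2D (52.8% of all genes), 5 in 3D (57.4%), 3 between cultures in D2A1 (24.8%) and 3 in D2.OR (20.6%). These counts depend on the scale. In CPM, Tfrc and Ftl1 overlapped between the lines in 2D, while Slc11a2, which overlapped in TPM, did not in 3D.

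**Figure D2:**
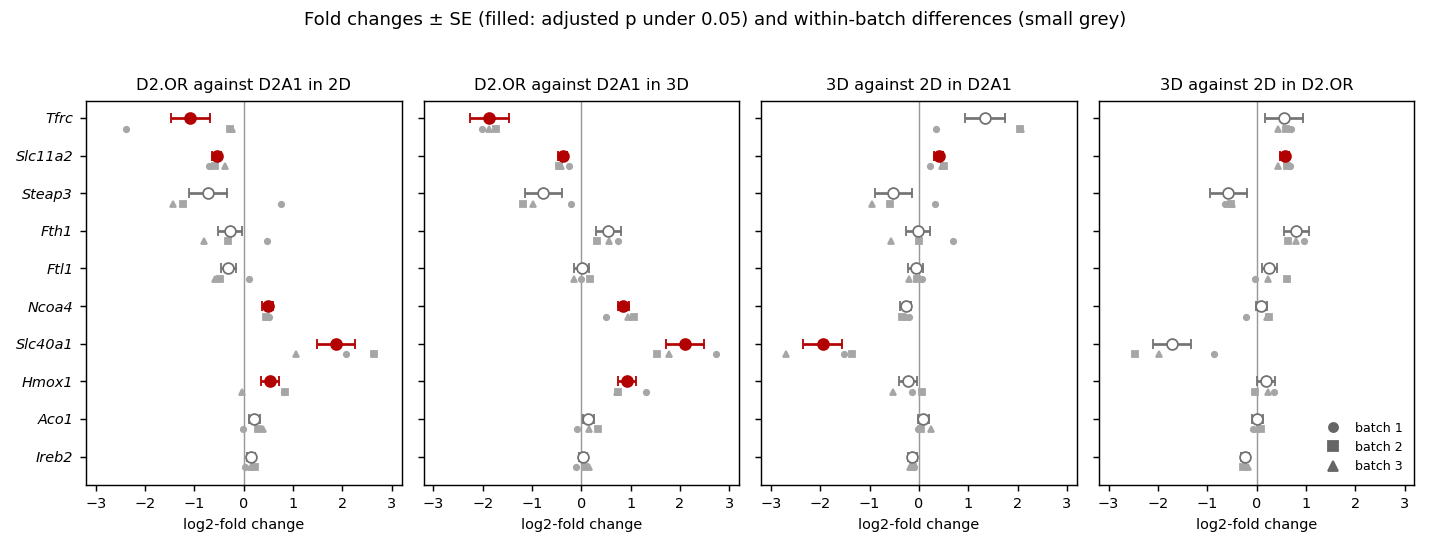
Log2-fold change with SE for the 10 genes in the 4 comparisons (x axis; filled red symbols passed an adjusted p of 0.05), with the log2 CPM difference within each batch as small grey symbols. Tfrc, Slc11a2, Ncoa4, Slc40a1 and Hmox1 are filled in both line comparisons, and in the culture comparisons Slc11a2 is filled in both lines and Slc40a1 in D2A1 alone.

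Among the uptake genes, Tfrc (chr16:32608920-32632794), the transferrin receptor, differed most. In replicates 1 to 3 it was at 90.5, 39.9 and 53.9 TPM in D2A1 2D, 125, 150 and 190 TPM in D2A1 3D, 15.7, 32.4 and 39.85 TPM in D2.OR 2D, and 31.1, 45.2 and 52.1 TPM in D2.OR 3D. All 3 D2A1 3D libraries were above the other 9. In 3D the level was 155 ± 32.9 TPM in D2A1 and 42.8 ± 10.7 TPM in D2.OR (mean ± SD, n = 3), and the log2-fold change of -1.87 (SE 0.40) passed the test with an adjusted p of 0.00373. The batches gave -2.02, -1.74 and -1.88, so that the difference in 3D was of like size in each. It stayed called without any 1 library, at -2.03 to -1.66.

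In 2D, Tfrc was also lower in D2.OR (log2-fold change -1.08, SE 0.40, adjusted p = 0.0499), but mostly in batch 1, and the TPM of the groups came as near as 39.88 in D2A1 and 39.85 in D2.OR. In CPM the groups overlapped, at 102 to 237 in D2A1 and 45.5 to 110 in D2.OR. The batch differences were -2.38, -0.28 and -0.23, and without D2A1 2D replicate 1 the change was -0.32 (adjusted p = 0.0346). The call was lost without any 1 of the 9 libraries outside the D2A1 2D group (adjusted p up to 0.203). Between 3D and 2D, the value in D2A1 was 1.34 (SE 0.40, adjusted p = 0.0712), made of 0.35 in batch 1 and of 2.05 and 2.07 in batches 2 and 3. Without D2A1 2D replicate 1 it was 2.13 (adjusted p = 0.000275), and the interaction was -1.56 (adjusted p = 0.00291) where with all libraries it was -0.79 (adjusted p = 0.473). In D2.OR the culture value was 0.56 (SE 0.39, adjusted p = 0.490), and 0.57 (adjusted p = 0.0259) without that D2A1 library.

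Proliferation markers were set beside Tfrc. The summed level of Mki67, Top2a, Ccnb1, Cdk1, Mcm2 and Pcna, all 6 detected in all groups, was 1085 to 1914 CPM in D2A1 3D, above the 667 to 959 CPM of D2A1 2D, the 478 to 985 CPM of D2.OR 2D and, in part, the 668 to 1114 CPM of D2.OR 3D. None of the 6 passed the test between 3D and 2D in either line, Mki67 being at 1.16 (adjusted p = 0.0687) in D2A1, and 3 of them, Top2a, Ccnb1 and Mcm2, were lower in D2.OR than in D2A1 in 3D, where 26.1% of all genes were lower. Mcm2, part of the replicative helicase, was lower in 2D as well (-1.20, adjusted p = 0.000763). None of the others was called in 2D, where Mki67 (0.41), Cdk1 (0.48) and Pcna (0.07) were positive and Top2a (-0.43) and Ccnb1 (-0.11) negative. In D2A1 the sum of the markers, like Tfrc, differed least between cultures in batch 1. The 2D and 3D sums were 959 and 1085 CPM in batch 1, 779 and 1717 CPM in batch 2, and 667 and 1914 CPM in batch 3. In D2.OR the sum was also higher in 3D in each batch, at 478 and 668, 784 and 1114, and 985 and 1091 CPM. Without D2A1 2D replicate 1, the library without which Tfrc was called, all 6 rose with 3D culture in D2A1 (30.3% of all genes called), among them Mki67 by 1.80 (adjusted p = 0.000418) and Pcna, the sliding clamp of DNA replication, by 1.54 (adjusted p = 0.000369). The interaction was then called for 5 of the 6, all but Mcm2 (14.5% of all genes). In 3D, 5 of the 6, all but Mki67, were lower in D2.OR, as were 5096 of 17305 genes tested. In 2D this fit called Mki67 (1.02, adjusted p = 0.00053), Cdk1 (1.04, 0.000297) and Pcna (0.58, 0.00218) higher in D2.OR, as were 4614 genes. Mcm2 (-0.95, adjusted p = 0.00109) and Tfrc (-0.32, 0.0346) were lower there, as were 4251 genes. The part of the markers in the Tfrc result was not tested. In bulk RNA, fewer cells of a kind and less RNA per cell cannot be told apart.

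Slc11a2 (chr15:100387898-100425072), also known as DMT1, carries ferrous iron out of the endosome. It was at 42.55, 47.6 and 46.4 TPM in D2A1 2D, 44.8, 52.1 and 61.9 TPM in D2A1 3D, 23.7, 24.8 and 39.99 TPM in D2.OR 2D, and 39.0, 44.7 and 45.75 TPM in D2.OR 3D. Every D2.OR 2D library was below every D2A1 library, and in each batch and line the 3D library was above its 2D partner. It was the only member called in all 4 comparisons. D2.OR was lower in 2D by a log2-fold change of -0.55 (SE 0.09, adjusted p = 0.00102) and in 3D by -0.38 (SE 0.09, adjusted p = 0.00656), both of which stayed called without any 1 library. The 3D call was lost without batch 2 (-0.33, adjusted p = 0.118) or batch 3 (-0.36, 0.0628) and also with limma on log2(TPM + 1), at -0.28 (adjusted p = 0.107), a scale on which the lines overlapped in 3D.

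With 3D culture Slc11a2 rose by 0.40 in D2A1 (SE 0.09, adjusted p = 0.0480) and by 0.57 in D2.OR (SE 0.09, adjusted p = 0.0240). The batch differences were 0.23, 0.50 and 0.47 in D2A1 and 0.68, 0.61 and 0.43 in D2.OR. The D2A1 call was lost in 10 of 12 runs that left out 1 library (all but those without D2A1 2D or 3D replicate 1), at 0.345 to 0.4008 with an adjusted p up to 0.228. The D2.OR call was lost without any 1 of the 6 D2.OR libraries, at 0.53 to 0.64 with an adjusted p up to 0.149. On the log2(TPM + 1) scale limma gave 0.20 in D2A1 (adjusted p = 0.335) and 0.57 in D2.OR (adjusted p = 0.0767).

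Steap3 (chr1:120190757-120272705), the ferrireductase of the endosome, was called in no comparison of the main fit. With only the compared groups fitted it was called between the lines in 3D (adjusted p = 0.0371) and for culture in D2.OR (0.0366). Its levels were 17.0, 22.6 and 26.5 TPM in D2A1 2D, 20.15, 12.9 and 11.6 TPM in D2A1 3D, 24.4, 7.89 and 8.71 TPM in D2.OR 2D, and 18.4, 6.02 and 5.89 TPM in D2.OR 3D. In D2.OR batch 1 was far above the other batches, and the groups overlapped. In 2D the line value was -0.73 (SE 0.38, adjusted p = 0.145) from batch differences of 0.75, -1.24 and -1.44. Without D2A1 2D replicate 1 it was -1.21 in 2D (adjusted p = 0.00308) and -0.82 in 3D (adjusted p = 0.00851), and culture in D2A1 was -0.96 (adjusted p = 0.0152).

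Among the storage genes, Fth1 (chr19:9982703-9985092), the ferritin heavy chain that oxidizes iron for storage, was at 7403, 11706 and 14841 TPM in D2A1 2D. It was at 11669, 10371 and 8972 TPM in D2A1 3D, 9337, 8400 and 7716 TPM in D2.OR 2D, and 19862, 13363 and 13595 TPM in D2.OR 3D. D2.OR 3D lay above D2.OR 2D and D2A1 3D with no overlap, and there Fth1 was the most abundant of all genes (1.56% of TPM). The value between 3D and 2D in D2.OR was 0.81 (SE 0.25, adjusted p = 0.141), with 0.96, 0.64 and 0.80 in the batches. In D2A1 it was -0.02 (SE 0.25, adjusted p = 0.973), but the batches went apart, at 0.69, -0.01 and -0.58.

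The interaction for Fth1 was 0.83 (SE 0.35, adjusted p = 0.266). Without D2A1 2D replicate 1, the library with the lowest Fth1 of all, the interaction was 1.14 (adjusted p = 0.0118), culture in D2.OR 0.80 (adjusted p = 0.0247), and the line values -0.60 in 2D (adjusted p = 0.0101) and 0.53 in 3D (adjusted p = 0.00781). With all libraries the line values were -0.28 (adjusted p = 0.380) and 0.55 (adjusted p = 0.0887). Without D2A1 2D replicate 3, the line value in 2D turned to 0.04 and that in 3D was also called.

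Ftl1 (chr7:45457944-45459884), the ferritin light chain, which helps the iron core form, was the steadier of the ferritin chains. It was at 4321, 4543 and 5817 TPM in D2A1 2D, 4409, 3955 and 4566 TPM in D2A1 3D, 4216, 2945 and 3557 TPM in D2.OR 2D, and 4495, 4586 and 4227 TPM in D2.OR 3D. In TPM the D2.OR 2D libraries were the lowest of their line and of 2D, which did not hold in CPM, and the other groups overlapped. No comparison was called, and the interaction was 0.33 (SE 0.21, adjusted p = 0.444). Between the lines in 2D Ftl1 was at -0.32 (SE 0.15, adjusted p = 0.113), and it was -0.43 (adjusted p = 0.0496) without D2A1 2D replicate 1 and was called also without D2.OR 2D replicate 1, with scaling by library total (-0.48, adjusted p = 0.0285) and with limma on log2(TPM + 0.1) (-0.46, 0.0409). The ratio of Fth1 to Ftl1 TPM was 2.91 to 4.42 in D2.OR 3D and 1.71 to 2.85 in the other groups.

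Ferritin has processed copies whose reads can be split by the counting. Genes named Ftl other than Ftl1 held 2.56% to 2.86% of the family's counts, nearly all in Ftl1-ps1, of which a transcript had 59.3% of the 100-base windows of Ftl1 and the same IRE letters as Ftl1. For Fth1 the 11 other genes of the name held at most 0.00386%. Adding the copies changed no call of Fth1 or Ftl1.

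Ncoa4 (chr14:32159865-32179855), the receptor that brings ferritin to the lysosome and so frees its iron, separated the lines in both cultures. It was at 91.3, 84.4 and 75.6 TPM in D2A1 2D, 78.9, 60.2 and 57.4 TPM in D2A1 3D, 121.5, 106 and 97.2 TPM in D2.OR 2D, and 117, 128 and 109 TPM in D2.OR 3D. All 6 D2.OR libraries were above all 6 D2A1 libraries. The log2-fold change was 0.49 in 2D (SE 0.11, adjusted p = 0.00614) and 0.85 in 3D (SE 0.11, adjusted p = 0.000279), and both calls held without any 1 library, but the 2D call was lost without batch 2 (0.51, adjusted p = 0.067) or batch 3 (0.49, 0.0684). The batches gave 0.52, 0.44 and 0.49 in 2D and 0.50, 1.06 and 0.95 in 3D. For the interaction the value was 0.36 (SE 0.16, adjusted p = 0.276), and 0.54 (adjusted p = 0.0193) without batch 1.

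Slc40a1 (chr1:45908068-45926523), ferroportin, the only known iron exporter of mammalian cells, had the widest range of the members. It was at 10.5, 4.81 and 10.6 TPM in D2A1 2D, 3.63, 1.67 and 1.39 TPM in D2A1 3D, 41.7, 27.6 and 20.2 TPM in D2.OR 2D, and 25.5, 4.77 and 5.36 TPM in D2.OR 3D. Within each culture the D2.OR libraries lay above the D2A1 libraries, and within each line and batch the 3D library lay below its 2D partner. D2.OR was higher by a log2-fold change of 1.87 in 2D (SE 0.39, adjusted p = 0.00357) and 2.10 in 3D (SE 0.39, adjusted p = 0.00187). Single left-out libraries gave 1.56 to 2.42 in 2D and 1.55 to 2.36 in 3D, all of them called, but without batch 2 the 2D call was lost (1.47, adjusted p = 0.0666).

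With 3D culture Slc40a1 fell by 1.95 on the log2 scale in D2A1 (SE 0.39, adjusted p = 0.0420), with batch differences of -1.53, -1.37 and -2.70. In D2.OR the value was -1.72 (SE 0.38, adjusted p = 0.0656), with -0.87, -2.46 and -1.98 in the batches, and the interaction was 0.23 (SE 0.53, adjusted p = 0.849). Hence a different response of the lines was not shown. The D2A1 call was lost without any 1 of the 8 libraries of batches 2 and 3 (adjusted p up to 0.223), at -2.23 to -1.40 over all left-out libraries. The D2.OR value passed the test without D2A1 2D replicate 1 (-1.77, adjusted p = 0.0425), and also without D2A1 2D replicate 3 or D2.OR 3D replicate 1. The genes whose centred log2 CPM was nearest to Slc40a1 over the 12 libraries were Optc (root mean square difference 0.461, under 2 CPM), Acpp (0.462) and Nr4a1 (0.551).

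**Figure D3:**
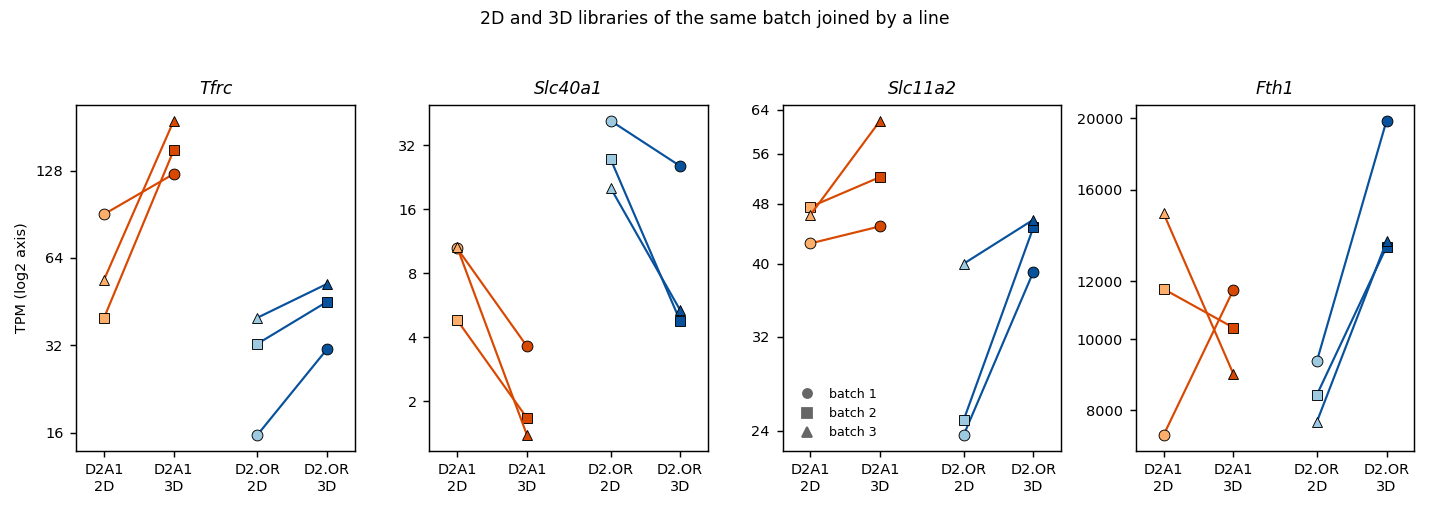
TPM (log2 axis) of Tfrc, Slc40a1, Slc11a2 and Fth1 in 2D and 3D, with libraries of the same line and batch joined. Slc11a2 and Tfrc are higher and Slc40a1 lower in 3D on all 6 lines, while Fth1 is higher in 3D in all 3 D2.OR batches and in batch 1 alone of D2A1.

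Importer and exporter can be set side by side per length. The ratio of Tfrc to Slc40a1 TPM was 34.3, 90.1 and 137 in D2A1 3D, against 5.10 to 8.66 in D2A1 2D, 1.22 to 9.72 in D2.OR 3D and 0.378 to 1.98 in D2.OR 2D. D2A1 3D stood above, and D2.OR 2D mostly below, the rest. The ratio of Tfrc to Fth1 was likewise highest in D2A1 3D, at 0.0107 to 0.0212, although D2A1 2D replicate 1 reached 0.0122.

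**Figure D4:**
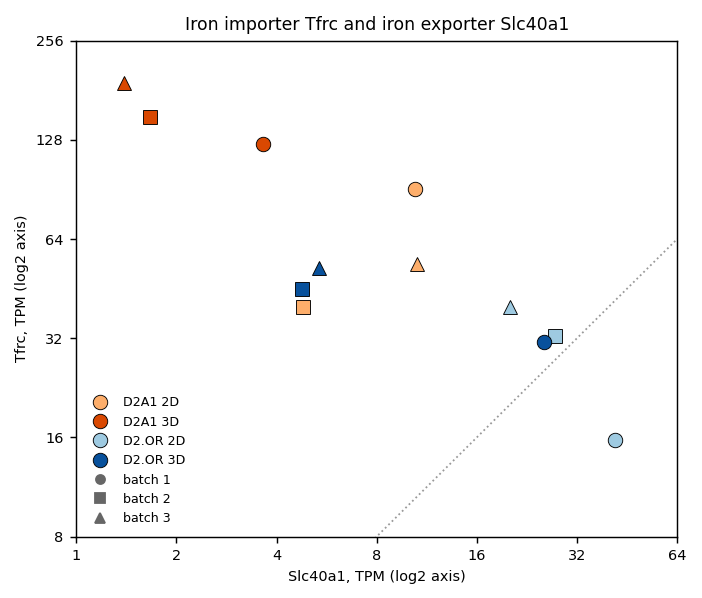
Tfrc against Slc40a1 in each library, both in TPM on log2 axes, with colours for the groups, symbols for the batches and a dotted line where both are equal. The D2A1 3D libraries lie at the top left (ratio 34.3 to 137) and D2.OR 2D at the lower right (0.378 to 1.98), while D2A1 2D and D2.OR 3D lie between, and D2.OR 3D replicate 1 (1.22) falls within the D2.OR 2D range.

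Hmox1 (chr8:75093621-75100589), haem oxygenase 1, releases iron by cleaving haem. It was at 115, 70.7 and 127 TPM in D2A1 2D, 103, 66.1 and 80.3 TPM in D2A1 3D, 185, 113.5 and 115 TPM in D2.OR 2D, and 258, 113 and 136 TPM in D2.OR 3D. In 3D every D2.OR library was above every D2A1 library, and in 2D the lines overlapped. The log2-fold change was 0.93 in 3D (SE 0.18, adjusted p = 0.00251), called without any 1 library. In 2D it was 0.53 (SE 0.18, adjusted p = 0.0388), from 0.82, 0.83 and -0.03 in the batches. That call was lost in 7 of 12 runs that left out 1 library, namely D2A1 2D or D2.OR 2D replicate 1 or 2, D2A1 3D replicate 2 or 3, or D2.OR 3D replicate 2 (0.39 to 0.53, adjusted p up to 0.156). It was also lost with scaling by library total (0.36, adjusted p = 0.129), with limma on log2(TPM + 1) (0.40, 0.101) or with 0.1 added (0.40, 0.0946), with only the compared groups (0.55, 0.0928), and without batch 1 (0.39, 0.112) or batch 2 (0.38, 0.315).

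Slc40a1 and Hmox1 are both abundant in macrophages, so the macrophage list was set beside them. Its 6 markers summed to 4.37 to 19.2 CPM in D2A1 and 15.4 to 25.7 CPM in D2.OR. In D2.OR most of this was Cd163, the scavenger receptor for haemoglobin and haptoglobin, at 12.4 to 24.1 CPM against at most 0.101 CPM in D2A1. In D2A1 most of it was Cd68, a lysosomal protein, at 3.73 to 19.1 CPM against 1.43 to 4.35 CPM in D2.OR. Csf1r reached 1.32 CPM in D2A1 3D and at most 0.179 CPM elsewhere, Ptprc at most 0.142 CPM, Lyz2 at most 0.0474 CPM, and Adgre1 was at 0 in 11 of 12 libraries. The part of such cells in the Slc40a1 and Hmox1 results was not tested.

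The IRE-binding regulators moved least. Aco1 (chr4:40143081-40198338), which is a cytosolic aconitase when it holds an iron-sulfur cluster and binds IREs when it does not, was at 41.3, 34.2 and 32.8 TPM in D2A1 2D, 40.7, 32.75 and 34.97 TPM in D2A1 3D, 37.5, 38.65 and 39.7 TPM in D2.OR 2D, and 39.8, 42.0 and 41.1 TPM in D2.OR 3D. Ireb2 (chr9:54863789-54912530), which is degraded when iron is plentiful, was at 42.97, 44.99 and 46.1 TPM in D2A1 2D, 39.7, 37.2 and 37.1 TPM in D2A1 3D, 40.2, 47.9 and 46.7 TPM in D2.OR 2D, and 37.6, 40.9 and 42.1 TPM in D2.OR 3D. Neither was called in any comparison, and all values lay between -0.23 and 0.22. Aco1 came nearest to a call between the lines in 2D (0.22, SE 0.11, adjusted p = 0.133; 0.33 and 0.0244 without D2A1 2D replicate 1). Ireb2 was at 0.14 between the lines in 2D (SE 0.08, adjusted p = 0.190) and at -0.23 between cultures in D2.OR (SE 0.08, adjusted p = 0.194). In each batch and line Ireb2 was lower in 3D than in 2D. Both act mainly through their protein state, which RNA does not show.

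Of 71 other genes of iron and haem handling in 8 lists, 67 were tested. Between the lines, 37 were called in 2D (12 higher and 25 lower in D2.OR, 55.2%, or 9 higher and 34 lower with scaling by library total) and 41 in 3D (16 higher and 25 lower, 61.2%), near the 49.8% and 53.8% over all genes. Their median log2-fold changes were -0.21 and -0.19. Culture called 3 of them in D2A1 (4.48%, against 3.48% of all genes) and 2 in D2.OR (2.99%, against 1.62%). For the interaction edgeR called 0 of them, limma 0 and DESeq2 9, where DESeq2 called 5.61% of all genes. Counts by direction in the lists below stand against 25.4% of all genes higher and 24.4% lower in D2.OR in 2D, and 27.7% and 26.1% in 3D. Counts of both directions together stand against 49.8% in 2D and 53.8% in 3D.

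Of the 10 tested genes of other uptake and ferrireductase, 8 were called between the lines in each culture. In D2.OR 2 were higher and 6 lower in 2D, and 3 were higher and 5 lower in 3D. Slc22a17, the receptor for lipocalin 2, was lower in D2.OR, with a log2-fold change of -4.03 in 2D (adjusted p = 1.92e-05) and -3.28 in 3D (adjusted p = 4.76e-05), at 0.24 to 0.46 TPM against 3.06 to 8.45 TPM in D2A1. Tfr2, the transferrin receptor of liver iron sensing, was listed at 0 TPM in all 3 D2A1 2D libraries and at 0.50 to 1.68 TPM in D2.OR 2D. In 3D it was higher in D2.OR as well (0.39 to 0.80 against 0.01 to 0.15 TPM, adjusted p = 0.000296). Lcn2, lipocalin 2, which binds iron carried by siderophores, rose with 3D in D2.OR by 1.76 (adjusted p = 0.0454), at 362, 1182 and 749.9 TPM against 87.3, 339 and 259 TPM, and was at 1.43 (adjusted p = 0.0534) in D2A1.

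Of the 9 tested genes of export oxidation and hepcidin control, 5 were called between the lines in 2D and 4 in 3D. In D2.OR 4 were higher and 1 lower in 2D, and 4 were higher and 0 lower in 3D. Hfe, the haemochromatosis protein that binds transferrin receptors, was higher in D2.OR by 3.18 in 2D (adjusted p = 7.2e-05) and 3.24 in 3D (adjusted p = 6.36e-05). Cp, ceruloplasmin, the ferroxidase that works with Slc40a1, was at 1561 to 1925 TPM in D2A1 2D and 564 to 1169 TPM in D2A1 3D, a change of -1.04 (adjusted p = 0.0359), against 445 to 735 TPM in D2.OR 2D and 606 to 993 TPM in D2.OR 3D. It was lower in D2.OR than in D2A1 in 2D (-1.52, adjusted p = 0.000232), and its interaction was not called (adjusted p = 0.0988). Of the hepcidin genes, Hamp had at most 1 count in a library and was not tested, and Hamp2 was at 29.4 to 63.98 TPM in the 12 libraries.

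For haem transport and breakdown, 4 and 5 of 8 genes were lower in D2.OR in 2D and 3D and none higher (24.4% and 26.1% of all genes were lower), led by Abcg2, an exporter whose substrates include porphyrins (-2.41 and -2.47, the larger adjusted p being 4.43e-06), and by Mfsd7c, also known as Flvcr2 (-3.74 and -1.72, the larger being 0.00689). Slc48a1, which moves haem out of lysosomes, rose with 3D in D2.OR by 0.67 (adjusted p = 0.0317). For haem synthesis, 5 of 9 genes were lower in 2D, and in 3D 3 were lower and 1 higher, with Ppox at -1.46 and -0.85 (adjusted p up to 0.00124) and Cpox at -1.07 and -1.12 (up to 0.00023), both enzymes of its last steps. Among 14 genes of mitochondrial iron and iron-sulfur clusters, 5 were lower in 2D, and 5 lower and 2 higher in 3D, with Isca1, an assembly factor, at 0.58 in 3D (adjusted p = 0.000748).

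Of the 4 tested genes of iron chaperones and ferritin turnover, 1 was called in 2D and 4 in 3D, where 3 were lower in D2.OR. The one higher in both was Herc2, a ubiquitin ligase that acts on Ncoa4, at 0.38 in 2D (adjusted p = 0.00802) and 0.73 in 3D (adjusted p = 0.000219). Fbxl5, which marks Ireb2 protein for degradation when iron is plentiful, was lower in D2.OR in 3D (-0.58, adjusted p = 0.0127). Of the 4 other transcripts known to carry an IRE, 3 were called in each culture, 2 higher and 1 lower in D2.OR. Among them were Epas1, the hypoxia factor HIF-2 alpha, at 3.04 and 3.15 (adjusted p up to 2.36e-05), and Cdc42bpa, a kinase, at 0.63 and 0.88 (up to 0.000495). In the list of NRF2, BACH1 and NRF2 targets, which share their control with Hmox1, 6 of 9 were called between the lines in each culture, 3 higher and 3 lower. Bach1, the haem-sensing repressor of Hmox1, was higher in D2.OR in 3D (1.07, adjusted p = 0.000459) beside the higher Hmox1, while Gclm of glutathione synthesis was lower there (-1.01, adjusted p = 0.00012). With 3D culture Gclm rose by 1.06 (adjusted p = 0.00955) and the quinone reductase Nqo1 by 1.56 (adjusted p = 0.0453) in D2A1, where Hmox1 was at -0.22 (adjusted p = 0.436).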

How the data were processed

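RNA-seq of 12 libraries (4 groups of 3) was analysed. The authors trimmed reads with Trimmomatic 0.32, aligned them with STAR 2.5.3 to GRCm38 with GENCODE M15 and quantified genes with RSEM 1.3.0. The deposited files hold RSEM expected counts, which need not be whole (27% to 28.3% of detected genes), and TPM, which the authors also merged into one table with the same values. Whether counting used strand is not given in the sources used here. Totals were 47589611 to 73325069 counts per library.

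Expected counts were rounded and tested with edgeR 4.0.16 (R 4.3.3): TMM scaling, filterByExpr (16823 of 52550 genes), terms for group and batch over all 12 libraries, the quasi-likelihood F-test, and Benjamini-Hochberg adjustment over all genes within a comparison. Fold changes are on the log2 scale, and log2 CPM used a prior count of 2. The members and lists were chosen with earlier results of these data known. All members are named, and of each list the 2 genes with the smallest p between the lines, those called for culture, and the 3 genes nearest to the member with the widest range. The values of 1 gene that this rule names are not reported here. Marker lists for luminal, basal, mesenchymal, macrophage, erythroid, endothelial, hepatocyte and proliferating cells were read as summed CPM. For endothelial cells the sum was at most 0.769 CPM, for hepatocytes 0.12, for erythroid cells 4.12 and for basal cells 15.6.

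The batch block follows the study's model and the batch numbers in the labels. Deviations from group means of same-numbered libraries correlated at 0.0758 to 0.511 (18 pairs, median 0.267), and those of different numbers at a median of -0.195. Alternatives were the likelihood-ratio test of DESeq2 1.42.0, a fit without the block, TPM on the log2 scale with 1 or 0.1 added in limma 3.58.1, RLE or library-total scaling, other filters, added ferritin copies, fits of the compared groups only, and leaving out each batch or library. The scripts were tested on simulated data. IREs came from GENCODE M21. RefSeq promoters (GRCm38.p6) held 7 of the 10 members and were not used.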

Additional observations from a re-analysis of the deposited data

How the results depend on the processing

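Calls depended on the setting more than directions did. Of the members' log2-fold changes under all alternatives, 1071 kept direction and side of the threshold, 75 lost and 47 gained a call, and 47 turned in sign, none of them called. Without the replicate block, 3 members were called between the lines in 2D (43.9% of all genes) and 0 for culture in D2A1 (0.309%) and in D2.OR (0.119%), and other iron and haem genes fell to 1 and 0 in the culture comparisons. The calls lost were Tfrc (-0.97, adjusted p = 0.0742) and Hmox1 (0.54, 0.204) in 2D, Slc11a2 (0.41, 0.114) and Slc40a1 (-1.86, 0.115) in D2A1, and Slc11a2 (0.56, 0.126) in D2.OR. The block changed no other call of a member. Fitting the compared groups only gave 3 members in 2D (37.5% of all genes), 0 for culture in D2A1 (0.0981%) and 5 in D2.OR (5.16%). Between the lines in 3D it gave 7 (57.6%), where Steap3 (adjusted p = 0.0371) and Fth1 (0.0169) gained a call. For culture in D2A1 and D2.OR, no filter gave 1 and 2 members (3.75% and 1.39% of all genes), limma on log2(TPM + 1) 1 and 0 (4.52% and 1.69%), and with 0.1 added 0 in D2.OR (1.29%), while DESeq2 gave 4 in D2.OR (6.98%), among them Fth1 (adjusted p = 0.0407), Slc40a1 (0.00112) and Ireb2 (0.0433), and called Tfrc in D2A1 (0.00899).

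For the other iron and haem genes, of which 67 were tested, culture in D2A1 gave 15 with DESeq2 (20.9% of all genes), 5 with RLE (4.71%), 6 each with no filter (3.75%), 10 counts in every library (5.98%) and limma with 0.1 added (6.75%), and 1 with the compared groups only (0.0981%). In D2.OR these were 8 with DESeq2 (6.98%), 1 with 10 counts in every library (1.23%), 4 with limma and 1 added (1.69%) and 4 with the compared groups only (5.16%). The interaction gave 9 with DESeq2 (5.61%) and 1 with no filter (0.322%). Leaving out a library or batch gave 1 to 8 members in 2D, 4 to 8 in 3D, 0 to 5 in D2A1, 0 to 4 in D2.OR and 0 to 3 for the interaction, and 19 to 41, 24 to 46, 0 to 30, 0 to 11 and 0 to 17 other genes, while over all genes these settings called 24.9% to 53.8%, 31% to 59.5%, 0% to 36.3%, 0% to 8.38% and 0% to 17.8%. The causes were not tested.

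Scaling by library total moved the median of all genes by -0.164 in 2D and -0.101 in 3D, and limma with 0.1 added by -0.11 in 2D and 0.136 for the interaction. With library totals 3394 genes were called higher and 5399 lower in 2D, against 4275 and 4103, and 160 and 73 for culture in D2.OR, against 141 and 132. Limma gave 3252 higher and 4684 lower in 2D (1 added), 195 and 566 (1 added) or 313 and 822 (0.1 added) for culture in D2A1, against 230 and 356, and 142 and 75 (0.1 added) in D2.OR. Scaling by library total turned Ireb2 (-0.0258 in 2D, -0.0593 in 3D), Ftl1 in 3D (-0.0896) and the interaction of Steap3 (0.0192). Fth1 in D2A1 turned to 0.0003 with 10 counts in every library and to 0.042 with the compared groups, and Aco1 in D2.OR to -0.0137 with no filter. Of the interactions on the TPM scale, Steap3 turned to 0.1452 and 0.134, Aco1 to 0.0797 and 0.0815 and Ireb2 to 0.0743 and 0.0761 (1 and 0.1 added), and Slc40a1 to -0.0087 (1 added). With libraries or batches left out, Fth1 spanned -0.601 to 0.0391 in 2D and -0.3401 to 0.3041 in D2A1, Ftl1 -0.1077 to 0.0885 in 3D and -0.172 to 0.0568 in D2A1, Ireb2 -0.0202 to 0.1165 in 3D, and Hmox1 -0.3534 to 0.0387 in D2A1 and -0.0053 to 0.2978 in D2.OR. Ncoa4 spanned -0.0001 to 0.2312 and Aco1 -0.0595 to 0.1083 in D2.OR, and the interactions -0.419 to 0.3921 for Steap3, -0.3417 to 0.8826 for Slc40a1 and -0.1973 to 0.0187 for Aco1. The lowest count of a member was 193, and the effect of depth was not tested.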
